A study of Mus musculus with 20 samples.

Results

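A set of regulators of Ras signalling were followed in the cerebellum of SCA3 knock-in mice: Rasd1, Rasd2, Rasal1, Rasal2, Rasa1, Rasa2, Rasgrp1, Rasgrf1 and Rasgrf2. The 9 genes were taken by name from the 29200 Ensembl gene IDs of the count table, each with 1 row. They were selected on measured values, those of 12 months, in which Rasd2 and Rasal1 were lower in 304Q/304Q mice. For these 9 genes the 12-month comparison of genotypes is therefore given as a description without a test. The other comparisons were tested where they do not reuse the values behind the choice. Spinocerebellar ataxia type 3 (SCA3) is a dominantly inherited ataxia caused by a lengthened glutamine repeat in ataxin-3.

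RNA came from the whole cerebellum of 20 male C57BL6/N mice, each of which gave 1 library. The groups were 5 WT/WT mice at 2 months, 5 304Q/304Q mice at 2 months, 5 WT/WT mice at 12 months and 5 304Q/304Q mice at 12 months. WT/WT mice carry the unchanged murine Atxn3 gene, and 304Q/304Q mice carry an Atxn3 repeat coding for 304 glutamines on both alleles, placed with zinc-finger nucleases into the endogenous gene. The sample labels name ataxin-2 for the wild type, which the study's methods give as Atxn3. All 304Q/304Q mice descend from 1 founder line, so effects of the repeat and of that line cannot be told apart. In RNA of a whole tissue, fewer cells of a type and less RNA per cell cannot be told apart either.

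Ras proteins are small GTPases that pass signals from receptors and calcium on to the Raf, MEK and ERK kinases. Guanine nucleotide exchange factors (GEFs) load them with GTP and switch them on, and GTPase-activating proteins (GAPs) speed the hydrolysis of GTP and switch them off. In neurons several of these regulators respond to calcium or diacylglycerol and so tie Ras to synaptic activity. Rasd1 and Rasd2 differ from the others because they are themselves small GTPases of the Ras family. Rasd1 (Dexras1) was found as a gene induced by dexamethasone and binds the nitric oxide synthase adaptor Nos1ap. Rasd2 (Rhes) is best known from the striatum, where it binds mutant huntingtin and mTOR.

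Rasd1 and Rasd2 are close relatives, so their reads have to be told apart before their values can be read. Their coding sequences in GENCODE M21 aligned over 798 bases, of which 543 (68.0%) were identical. Part of both is shown, with the longest run of bases that the transcripts share in capitals, 16 bases long. In the GRCm38 build the Rasd1 stretch lies at chr11:59964064-59964169 on the minus strand and the Rasd2 stretch at chr8:75221916-75222021 on the plus strand, both in the coding part of an exon.
Rasd1: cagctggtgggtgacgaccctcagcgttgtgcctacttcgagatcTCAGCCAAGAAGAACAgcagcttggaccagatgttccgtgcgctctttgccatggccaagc
Rasd2: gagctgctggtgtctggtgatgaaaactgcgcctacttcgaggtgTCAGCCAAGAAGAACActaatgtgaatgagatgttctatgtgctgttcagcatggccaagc
Between any other pair of the 9 genes the longest shared run was at most 27 bases (Rasal2 with Rasa2). Of the exon bases of Rasal2, 1.78% lie opposite the pseudogene 2810025M15Rik, and 12 exon bases of Rasa1 lie opposite Ccnh. Whether the counting used the strand is not given in the sources used here.

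The libraries held between 11385380 and 27636687 counted reads, and the largest was a 304Q/304Q mouse of 2 months. Values are given as normalized counts (TMM scaling of edgeR), the count a library of the mean size (14303988 reads) would have. Of all genes, 12153 had a mean of at least 50 counts and were tested, and all 9 regulators were among them. Rasd1 and Rasgrf2 lie closest to this limit, with 21 to 99 and 26 to 130 reads per mouse. Atxn3 itself had 239.9 to 332.0 normalized counts in WT/WT mice of 2 months, against 158.2 to 240.6 in 304Q/304Q mice. At 12 months the ranges were 201.4 to 234.0 and 180.5 to 220.2. The log2 fold change of Atxn3 was -0.54 at 2 months (SE 0.115, adjusted p = 0.0916 by edgeR) and -0.13 at 12 months (SE 0.117, adjusted p = 0.51 by edgeR). These counts do not read the repeat, so they do not check the genotype. The Purkinje and granule cell markers, which define the cerebellum, summed to at least 4968 CPM (counts scaled to a common library total) per list in every mouse. Genes of the choroid plexus exceeded 100 CPM in 6 libraries, 1 and 0 of the younger 304Q/304Q and WT/WT mice and 2 and 3 of the older. Genes of skeletal muscle reached 160 CPM in 1 304Q/304Q mouse of 12 months. Genes were called differentially expressed (DEGs) where the log2 fold change reached 0.5 in either direction and the adjusted p did not exceed 0.05. Replicates were separate mice.

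Rasd2 and Rasal1 were the members with the largest differences. Rasd2 spans chr8:75213944-75224113 on the plus strand (ENSMUSG00000034472). In WT/WT mice of 2 months its normalized counts were 518.7, 545.6, 439.4, 369.7 and 472.4. In 304Q/304Q mice of the same age they were 396.4, 390.4, 407.9, 410.9 and 423.9. At 2 months 4 of the 5 WT/WT mice thus lay above every 304Q/304Q mouse and 1 lay below them all. At 12 months the WT/WT mice had 516.6, 461.4, 540.8, 425.9 and 479.3 normalized counts of Rasd2. The 304Q/304Q mice of 12 months had 205.7, 213.6, 201.1, 153.7 and 173.5. The highest 304Q/304Q mouse of 12 months was therefore far under the lowest WT/WT mouse, and also under each of the 10 younger mice.

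**Figure D1:**
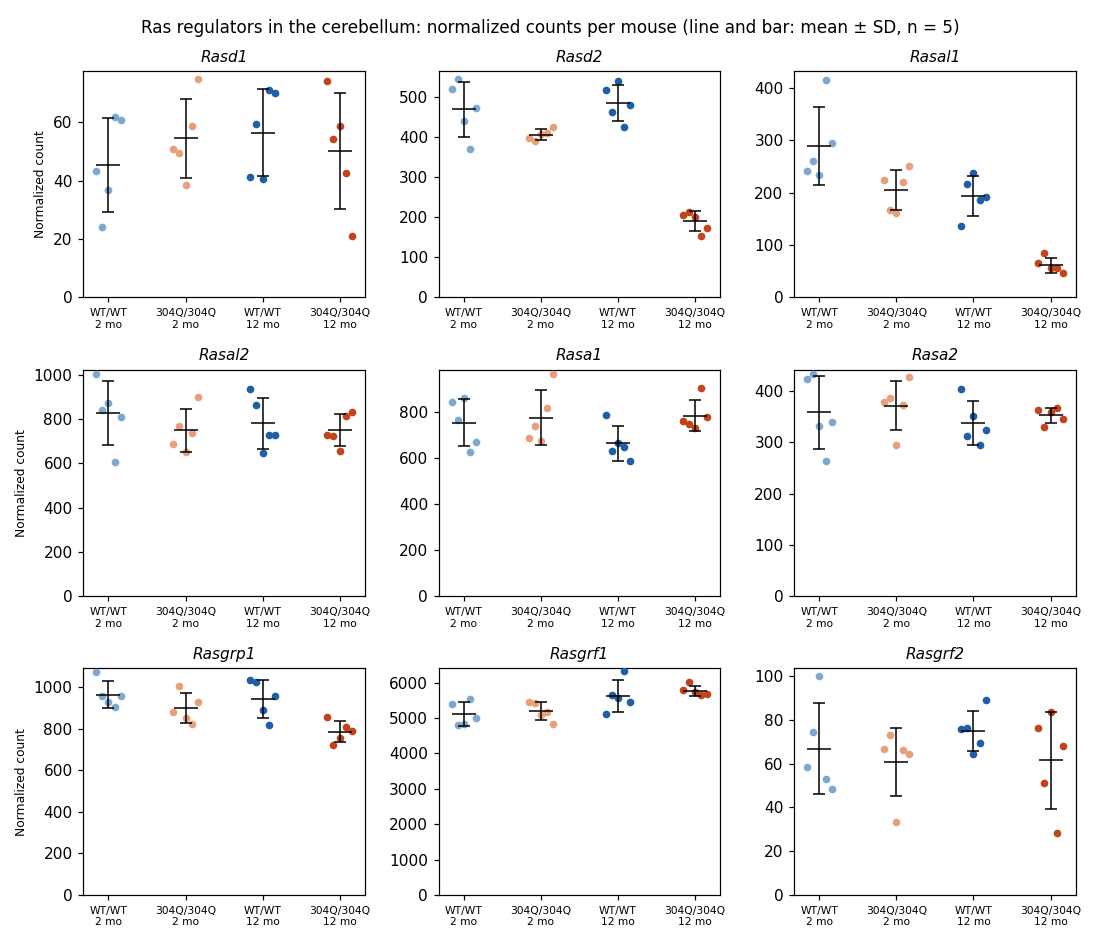
Normalized counts (y axis, from 0) of the 9 Ras regulators in each mouse, by genotype and age (x axis); each point is 1 mouse, the line the group's mean and the bar its SD (n = 5). In the panels of Rasd2 and Rasal1 the 304Q/304Q mice of 12 months lie under all other mice, at 153.7 to 213.6 and 46.14 to 84.11, while the groups overlap between genotypes in the other panels.

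The mean of Rasd2 in WT/WT mice was 469.1 ± 69.1 (SD, n = 5) at 2 months and 484.8 ± 45.2 at 12 months. In 304Q/304Q mice it was 405.9 ± 13.1 and 189.5 ± 25.1. The older 304Q/304Q mice thus had 39.1% of the level of WT/WT mice of their age, a fitted log2 fold change of -1.36 (SE 0.104). At 2 months the level was 86.5% of WT/WT, and the log2 fold change of -0.21 (95% confidence interval -0.41 to -0.01) did not pass edgeR's quasi-likelihood test (adjusted p = 0.883). From 2 to 12 months the log2 fold change of Rasd2 was 0.05 in WT/WT mice and -1.10 in 304Q/304Q mice, and the difference between both was -1.15 (SE 0.143). These last values share the 12-month mice with the choice of the gene and carry no test.

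Rasal1 spans chr5:120648812-120679597 on the plus strand (ENSMUSG00000029602) and codes for a Ras GAP whose membrane binding depends on calcium. WT/WT mice of 2 months had 242.2, 260.8, 232.9, 414.3 and 295.0 normalized counts. The 304Q/304Q mice of 2 months had 224.4, 167.3, 161.3, 220.2 and 250.3. The ranges of the genotypes overlapped at this age, with 4 of the 5 304Q/304Q mice under every WT/WT mouse. At 12 months the WT/WT mice had 135.8, 216.8, 237.3, 185.4 and 192.0. The 304Q/304Q mice of that age had 65.82, 84.11, 56.21, 55.6 and 46.14, all under the lowest WT/WT mouse. Unlike Rasd2, Rasal1 also had a lower mean in older than in younger WT/WT mice, so that its group means step down from 289.0 ± 74.0 and 204.7 ± 38.7 at 2 months to 193.5 ± 38.3 and 61.58 ± 14.4 at 12 months (SD, n = 5, WT/WT first).

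At 12 months 304Q/304Q mice had 31.8% of the Rasal1 level of WT/WT mice (log2 fold change -1.65, SE 0.193). At 2 months they had 70.8%, and the log2 fold change of -0.49 (95% confidence interval -0.84 to -0.14) had an adjusted p of 0.73 by edgeR's quasi-likelihood test (0.00764 unadjusted). This call depends on the method. DESeq2 with surrogate variables, the kind of model the study used, gave -0.56 with an adjusted p of 0.0364. Of the 29 alternatives that tested Rasal1, only this 1 called it, and their adjusted p ranged from 0.0364 to 0.998. The genes that the study names as DEGs at both ages do not include Rasal1. From 2 to 12 months the log2 fold change of Rasal1 was -0.58 in WT/WT mice and -1.74 in 304Q/304Q mice, a difference of -1.16 (SE 0.257) that carries no test.

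Over the members, 2 of 9 were DEGs at 12 months, Rasd2 and Rasal1, and the same 2 had groups that did not overlap. These are the genes that decided the choice, so the counts hold no information beyond it. Of all genes tested, 3.09% were DEGs at 12 months and 8.94% had groups that did not overlap. At 2 months, edgeR's quasi-likelihood test called none of the 9 members, against 0.00823% of all genes. An unadjusted p under 0.05 was met by 2 members, Rasal1 and Rasd2, and by 5.55% of all genes. The groups of 2 months overlapped for all 9 members, while 1.05% of all genes had groups that did not. DESeq2 without surrogate variables also called none, and with them it called Rasal1 alone.

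**Figure D2:**
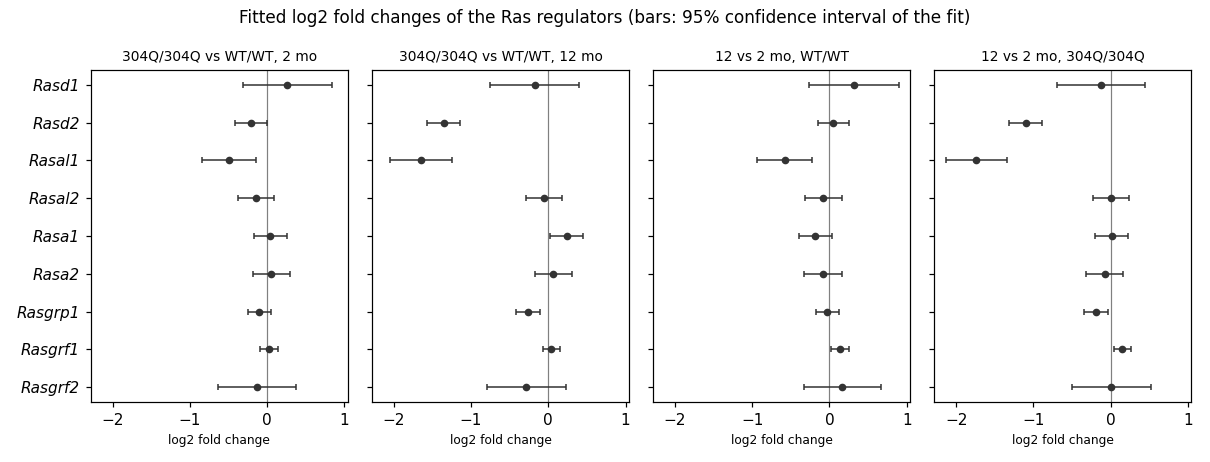
Fitted log2 fold changes (x axis) of the 9 Ras regulators (y axis) for 304Q/304Q against WT/WT mice at each age and for 12 against 2 months in each genotype; points are estimates and bars their 95% confidence intervals. Rasd2 and Rasal1 stand at -1.36 and -1.65 at 12 months, and the other 7 lie between -0.28 and 0.24.

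The GAPs other than Rasal1 gave no DEG in any comparison tested. Rasal2 (chr1:157135182-157412595, minus strand) had between 605.5 and 1004 normalized counts over all 20 mice, with group means from 749.2 to 826.8. Its log2 difference between genotypes was -0.14 at 2 months (95% confidence interval -0.38 to 0.09) and -0.06 at 12 months. Rasa1 (chr13:85214780-85289130, minus strand), the p120 RasGAP that binds activated receptor tyrosine kinases, had 587.0 to 786.1 normalized counts in WT/WT and 729.5 to 900.5 in 304Q/304Q mice of 12 months. Only the highest WT/WT mouse reached into the range of the 304Q/304Q mice, and the log2 fold change was 0.24 (SE 0.103). At 2 months it was 0.04 (95% confidence interval -0.17 to 0.26). Rasa2 (chr9:96539300-96631617, minus strand), a GAP of the GAP1 family, differed by 0.06 on the log2 scale at 2 months (95% confidence interval -0.18 to 0.29) and by 0.07 at 12 months. Its 5 304Q/304Q mice of 12 months lay close together, at 329.8 to 367.4 normalized counts, inside the WT/WT range of 294.6 to 404.2.

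The 3 GEFs among the members are all expressed in the cerebellum, at very different levels. Rasgrp1 (chr2:117279993-117343001, minus strand) is activated by diacylglycerol and calcium. Its normalized counts were 904.1 to 1072 in WT/WT and 820.9 to 1005 in 304Q/304Q mice at 2 months. At 12 months they were 818.8 to 1034 and 722.7 to 854.6, with 4 of 5 WT/WT mice above every 304Q/304Q mouse. The log2 fold change was -0.10 at 2 months (95% confidence interval -0.25 to 0.05) and -0.26 at 12 months (SE 0.0726), where 304Q/304Q mice had 83.3% of the WT/WT level. With age it differed by -0.03 in WT/WT mice, and by -0.19 in 304Q/304Q mice (95% confidence interval -0.34 to -0.04), which missed the threshold of edgeR's test with Benjamini-Hochberg adjustment (adjusted p = 0.127).

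Rasgrf1 (chr9:89909908-90026977, plus strand), a GEF that responds to calcium through calmodulin, had the highest counts of the 9 genes. WT/WT mice had 4815 to 5523 normalized counts at 2 months and 5104 to 6321 at 12 months. In 304Q/304Q mice the range was 4836 to 5456 at 2 months and 5648 to 6014 at 12 months, so the older mice all lay above the younger, as was the case for 3.6% of all genes in this comparison. The log2 fold change with age was 0.15 in 304Q/304Q mice (95% confidence interval 0.04 to 0.26, adjusted p = 0.0989 by edgeR) and 0.14 in WT/WT mice (0.03 to 0.25, adjusted p = 0.102), and the difference between both was 0.02 (95% confidence interval -0.14 to 0.17). The genotypes differed by 0.02 at 2 months (95% confidence interval -0.09 to 0.14) and by 0.04 at 12 months. Rasgrf2 (chr13:91880400-92131656, minus strand), its paralog, had only 28.34 to 99.8 normalized counts per mouse. Its interval at 2 months was wide, from -0.63 to 0.38 on the log2 scale, and the estimate at 12 months was -0.28 (SE 0.246).

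Rasd1 (chr11:59963181-59964944, minus strand), the closest relative of Rasd2, had groups that overlapped at both ages. WT/WT mice of 12 months had 41.2, 59.41, 40.61, 71.16 and 69.9 normalized counts. The 304Q/304Q mice had 74.05, 54.23, 58.71, 42.52 and 21.06, so that the highest and the lowest of the 10 values both fell in this group. The log2 fold change was -0.18 at 12 months (SE 0.28) and 0.26 at 2 months (95% confidence interval -0.31 to 0.84). With these counts and this spread between mice, a change of moderate size was not detectable. Other genes known to be induced by glucocorticoids (Fkbp5, Tsc22d3, Sgk1, Per1, Zbtb16 and Mt2) had lower values in 304Q/304Q mice of 12 months. Their summed level was 330 to 540 CPM in WT/WT and 221 to 290 CPM in 304Q/304Q mice, and 5 of 6 were DEGs by edgeR.

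Over the age and interaction comparisons, none of the 7 members other than Rasd2 and Rasal1 was a DEG by edgeR's quasi-likelihood test. In all genes, 2.58% were DEGs with age in WT/WT mice, 2.28% with age in 304Q/304Q mice and 0.938% for the interaction. The lowest adjusted p among these 7 was 0.102 in WT/WT mice (Rasgrf1), 0.0989 in 304Q/304Q mice (Rasgrf1) and 0.45 for the interaction (Rasgrp1, -0.16, 95% confidence interval -0.37 to 0.05). The Benjamini-Hochberg adjustment ran over all 12153 genes. An unadjusted p under 0.05 was met by Rasgrf1 with age in WT/WT mice (27.5% of all genes) and by Rasgrf1 and Rasgrp1 with age in 304Q/304Q mice (19.1% of all genes). DESeq2, with or without surrogate variables, called none of the 7 either.

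Levels of different genes can only be compared per length, as RPKM, the CPM divided by the kilobases of exon. On this scale Rasgrf1 ranked first in every group, with means of 32.3 to 36.5 RPKM, and no other member reached its range. Rasgrp1 followed at 9.81 to 12.0 RPKM and Rasgrf2 was last at 0.459 to 0.566 RPKM. Rasd2 took the third place in WT/WT mice, at 10.3 ± 1.52 RPKM at 2 months and 10.7 ± 0.996 RPKM at 12 months (SD, n = 5), and its range overlapped that of Rasgrp1. In 304Q/304Q mice of 12 months it stood at 4.17 ± 0.552 RPKM, below Rasa1 and level with Rasal2. Rasal1 went from 5.71 ± 1.46 RPKM in young WT/WT mice, where its range overlapped those of Rasa1 and Rasal2, to 1.22 ± 0.284 RPKM in old 304Q/304Q mice, where it overlapped only Rasa2 and Rasd1 and remained above Rasgrf2. The order of the other neighbours Rasd1 and Rasa2 was not separated in any group.

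**Figure D3:**
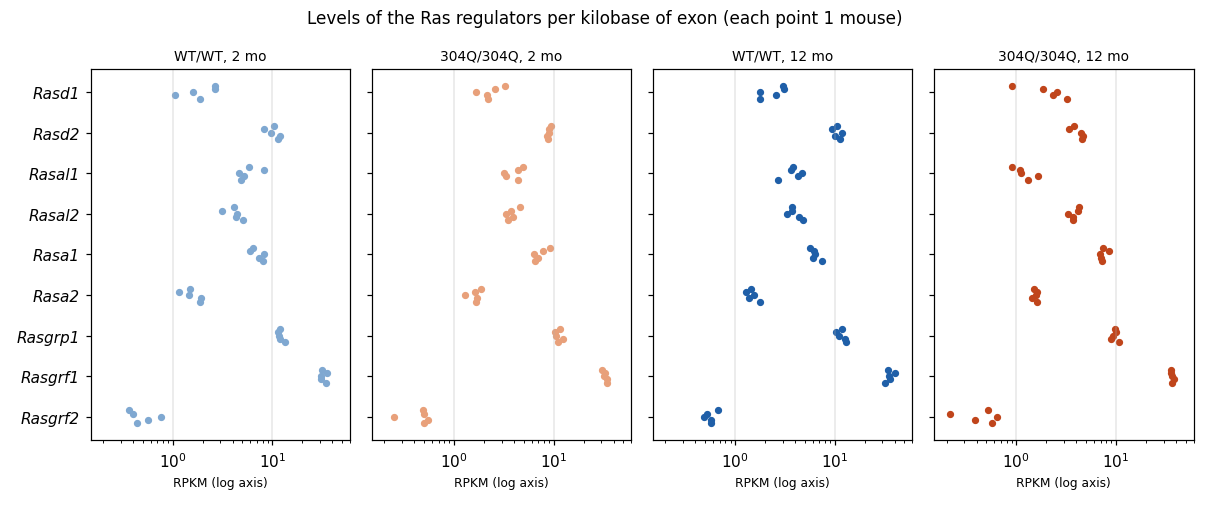
Level of each Ras regulator in RPKM (x axis, log scale) in the 4 groups; each point is 1 mouse. Rasgrf1 lies at 30.4 to 39.9 RPKM in all 20 mice, Rasgrf2 at 0.215 to 0.755, and Rasd2 and Rasal1 shift to the left in 304Q/304Q mice of 12 months.

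The spread between mice differed between members. The coefficient of variation of Rasgrf1 within a group was 2.54% to 7.92%, and that of Rasd1 24.8% to 39.5%, where counting alone gives 12.4% to 15.2%. Rasd2 in 304Q/304Q mice of 2 months varied by 3.22%, less than the 4.55% that counting alone gives. Rasal1 varied by 18.9% to 25.6%, above its counting error of 6.04% to 13.3%.

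The rest of the Ras pathway was followed through 6 lists with 79 genes. The fit held 71 of them. The lists were chosen with earlier results of these data known, so the p-values of their genes are no independent test. At 12 months 3 of the 71 were DEGs, all lower in 304Q/304Q mice, where 3.09% of all genes were DEGs and 1.83% were lower DEGs. At 2 months none of the 71 was a DEG by edgeR. The median log2 fold change of the 71 genes was -0.03 at 2 months and -0.02 at 12 months. The 3 genes were Dusp5, a phosphatase that removes the activating phosphates from nuclear ERK, and the small GTPases Rasl11a and Rasl11b, which belong to the Ras family.

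Dusp5 (chr19:53529109-53542431, plus strand) had the largest change of the lists. WT/WT mice of 2 months had 2101, 1943, 1987, 1124 and 2164 normalized counts, and 304Q/304Q mice of 2 months 1631, 1606, 1484, 958.9 and 1487. At 12 months WT/WT mice had 2326, 2063, 2391, 1947 and 2371. The 304Q/304Q mice of 12 months had 783.7, 567.8, 679.5, 547.3 and 1046, all under every WT/WT mouse of either age. The log2 fold change was -1.61 at 12 months (SE 0.171, adjusted p = 5.25e-07 by edgeR's quasi-likelihood test) and -0.38 at 2 months (SE 0.164, adjusted p = 0.86). With age it was 0.25 in WT/WT mice (adjusted p = 0.323) and Dusp5 fell by 0.98 in 304Q/304Q mice (adjusted p = 0.000411 by edgeR). The difference of both, -1.23 (SE 0.236), passed the test of the interaction (adjusted p = 0.00466 by edgeR), though without the 6 libraries rich in choroid plexus genes it was -1.20 with an adjusted p of 0.0994. Over all alternatives run this gene kept the direction and the call at 12 months. Of its exon bases, 547 lie opposite the antisense gene AC137853.2, with which reads could be shared if the strand was not used.

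**Figure D4:**
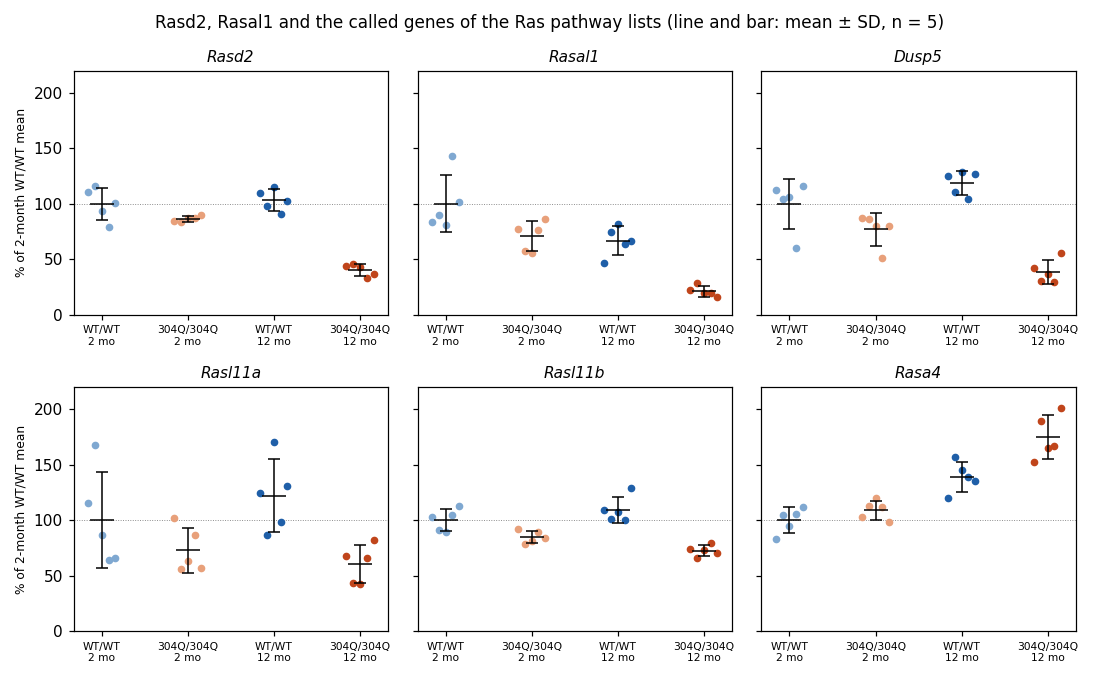
Normalized counts of 6 genes as percent of their mean in WT/WT mice of 2 months (y axis, from 0), by group (x axis); each point is 1 mouse, the line the mean and the bar the SD (n = 5). Rasd2, Rasal1 and Dusp5 are at their lowest in 304Q/304Q mice of 12 months, where the groups of these 3 genes and of Rasl11a and Rasl11b do not overlap with WT/WT mice of that age, while Rasa4 is higher in the older mice of both genotypes.

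Dusp5 belongs to the genes induced by neuronal activity and growth factors, so the immediate early genes Fos, Fosb, Junb, Egr1, Arc, Nr4a1 and Npas4 are given beside it. Their summed level was 272 to 506 CPM in WT/WT and 135 to 456 CPM in 304Q/304Q mice of 12 months, with ranges that overlapped. None of the 7 was a DEG by edgeR, with 5 of them below 0 (6181 of all 12153 genes tested) and a median log2 fold change of -0.64. The 5 were Nr4a1 (-1.22, unadjusted p = 0.0179 and adjusted p = 0.098 by edgeR), Fosb (-1.10), Fos (-1.05), Npas4 (-0.64) and Junb (-0.64, unadjusted p = 0.0327 and adjusted p = 0.143 by edgeR). Arc was higher with an adjusted p of 0.0198 by edgeR, but its log2 fold change of 0.34 was under the threshold of size. In each group of 2-month mice, the mouse with the lowest Dusp5 also had the lowest sum, 156 CPM in the WT/WT and 122 CPM in the 304Q/304Q group. Other mice did not follow this order. Among WT/WT mice of 12 months the lowest sum, 272 CPM, went with 2326 normalized counts of Dusp5 and the highest, 506 CPM, with 2063. Among WT/WT mice of 2 months the highest sum, 367 CPM, went with 1987, below the mice at 250 CPM (2164) and 282 CPM (2101). The 304Q/304Q mice of 12 months with sums of 406 and 456 CPM had 783.7 and 1046 normalized counts of Dusp5, the highest of their group and still under every WT/WT mouse. The part of neuronal activity at the time of death in these values was not tested.

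The 250 bases before the start of Rasd2 and those before the start of Dusp5 are shown because both genes were lower in the same mice. They were taken from RefSeq (GRCm38.p6), whose table held 7 of the 9 members; Rasd1 and Rasal1 were not matched. The Rasd2 stretch is chr8:75213694-75213943 on the plus strand. The Dusp5 stretch, chr19:53528895-53529108 on the plus strand, is shown up to the base before the first exon in GENCODE. Capitals mark matches, on either strand, to the motifs searched.
Rasd2: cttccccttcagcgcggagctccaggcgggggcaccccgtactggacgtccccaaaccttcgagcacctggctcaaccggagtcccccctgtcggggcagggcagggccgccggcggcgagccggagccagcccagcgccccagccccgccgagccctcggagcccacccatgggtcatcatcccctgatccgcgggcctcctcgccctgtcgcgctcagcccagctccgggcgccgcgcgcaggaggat
Dusp5: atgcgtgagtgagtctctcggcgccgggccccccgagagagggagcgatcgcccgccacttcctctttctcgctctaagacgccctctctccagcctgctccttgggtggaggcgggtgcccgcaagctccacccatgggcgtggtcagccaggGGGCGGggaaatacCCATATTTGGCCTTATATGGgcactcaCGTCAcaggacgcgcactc
The motifs were the CArG box that serum response factor binds, the core TGACG of the cAMP response element and the GC box GGGCGG. The others were the element AAAGGTCA, TATAAA and the E-box CACGTG. All 6 were chosen after the Dusp5 sequence had been seen. Dusp5 held 2 CArG boxes that abut each other, at 82 to 73 and 72 to 63 bases before the RefSeq start, with TGACG at 55 to 51 and GGGCGG at 96 to 91 bases before it. Of all 32851 promoters in the table, 1.47% held a CArG box, 17.8% TGACG and 32.7% GGGCGG. The Rasd2 stretch held none of the 6, and among the 7 members with a promoter none held a CArG box. A match is a description of letters and says nothing of binding in these mice.

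Rasl11b (chr5:74195286-74199481, plus strand) had 424.9 to 549.2 normalized counts in WT/WT and 280.0 to 336.9 in 304Q/304Q mice of 12 months, and fell by 0.59 on the log2 scale (SE 0.0852, adjusted p = 3.36e-05 by edgeR). At 2 months its ranges overlapped, and the log2 fold change of -0.23 (SE 0.0839) had an adjusted p of 0.74 by edgeR. Rasl11a (chr5:146845071-146847726, plus strand) had 81.19 to 160.3 and 39.97 to 77.23 normalized counts at 12 months, a log2 fold change of -1.002 (SE 0.264, adjusted p = 0.0134 by edgeR). This call was lost without WT/WT replicate 3 of 12 months (-0.85, adjusted p = 0.0532 by edgeR) and without the 6 libraries rich in choroid plexus genes (-1.07, adjusted p = 0.119). Of the 26 tested Ras-family GTPases 2 were DEGs and their median log2 fold change was -0.06 at 12 months.

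Among the other Ras GAPs, Rasa4 (chr5:136083916-136111860, plus strand) rose with age in 304Q/304Q mice, from 393.1 to 479.6 normalized counts at 2 months to 608.8 to 804.4 at 12 months. The log2 fold change was 0.69 (SE 0.0909, adjusted p = 2.11e-05 by edgeR). In WT/WT mice it was 0.48 (SE 0.0924, adjusted p = 0.00213), just under the threshold of size, which it passed without WT/WT replicate 5 of 2 months (0.52), without WT/WT replicate 1 of 12 months (0.53) and without the libraries rich in choroid plexus genes (0.50). The interaction of 0.21 (SE 0.129) had an adjusted p of 0.437 by edgeR, so the ages were not shown to differ more in one genotype. Gm15701 lies opposite 182 exon bases of Rasa4. None of the 5 tested GAPs of this list was a DEG between the genotypes at either age.

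None of the 7 tested members of the list of other GEFs was a DEG in any comparison, Sos1 and Sos2, which couple receptors to Ras, and Rasgrp3 included. At 12 months Sos1 differed by 0.06 (SE 0.102), Sos2 by -0.12 (SE 0.0819) and Rasgrp3 by -0.11 (SE 0.123) on the log2 scale. The 13 genes of the Raf, MEK and ERK cascade held no DEG either, with log2 fold changes between -0.22 and 0.26 at 12 months. Map2k2 (MEK2) differed by -0.19 (SE 0.091), the ERK substrate kinase Rps6ka2 by -0.22 (SE 0.0964) and the scaffold Ksr2 by 0.02 (SE 0.0972). Of the 9 partners of Rasd1 and Rasd2, none was a DEG, and at 12 months Nos1ap differed by -0.17 (SE 0.0977), Acbd3 by 0.04 (SE 0.0925) and Mtor by -0.02 (SE 0.0526). Dusp5 was the only DEG of 11 ERK feedback inhibitors, whose median log2 fold change was -0.19 at 12 months against -0.03 at 2 months.

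**Figure D5:**
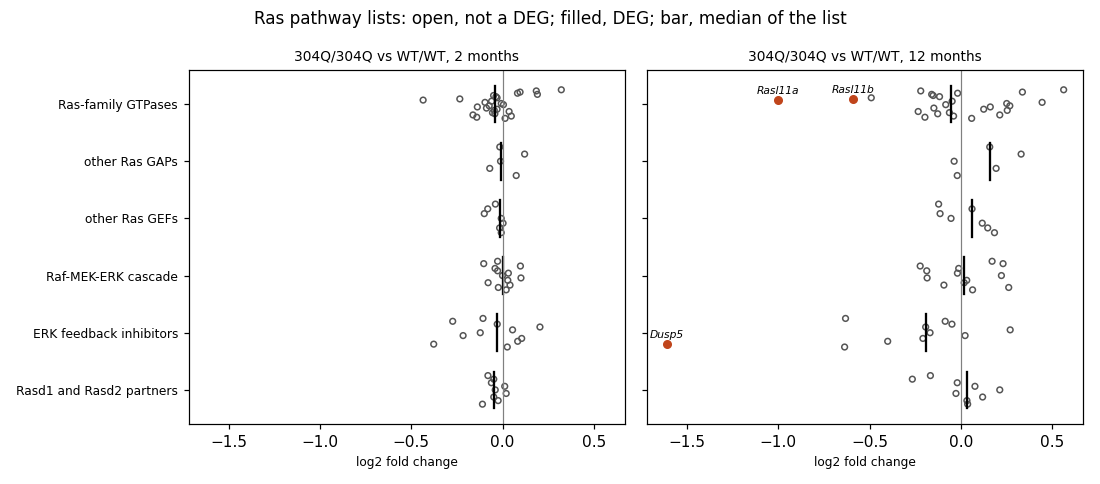
Log2 fold changes of 304Q/304Q against WT/WT mice (x axis) for the 71 tested genes of 6 Ras pathway lists (y axis) at 2 and 12 months; each circle is 1 gene, filled circles are DEGs and the bar is the list's median. No gene is filled at 2 months, and Dusp5 (-1.61), Rasl11a (-1.002) and Rasl11b (-0.59) are filled at 12 months.

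Markers of several cell types moved with Rasd2 and Rasal1. The summed level of 7 Purkinje cell markers was 7216 to 8009 CPM in WT/WT and 5692 to 6258 CPM in 304Q/304Q mice of 12 months, and 2 of the 7, Pcp2 and Rgs8, were lower DEGs by edgeR. For 7 oligodendrocyte markers the sums were 5124 to 5859 and 3363 to 4640 CPM, and Mobp and Mal were lower DEGs. For 6 markers of inhibitory interneurons they were 1752 to 1959 and 1450 to 1530 CPM, with no DEG among the 6 (Pvalb -0.45, adjusted p = 4.26e-06). The 6 granule cell markers overlapped, at 5137 to 5437 and 4968 to 5403 CPM, with no DEG. Brainstem markers had low sums that overlapped, at 10.6 to 13.7 and 3.89 to 14.8 CPM, with 1 gene tested and no DEG. The 304Q/304Q replicates 1, 4 and 5 had 7.48, 3.89 and 5.33 CPM, below every WT/WT mouse, and replicates 2 and 3 had 14.8 and 13.4 CPM. Astrocyte and Bergmann glia markers had sums of 2333 to 2461 and 2171 to 2302 CPM, with 2 lower DEGs of 5 (Gdf10 and Aldh1l1). Sums of 5 unipolar brush cell markers went the other way, at 1100 to 1199 CPM in WT/WT mice against 1238 to 1314 CPM. Of the 4 tested, Calb2 was a higher DEG (0.53, adjusted p = 3.36e-06 by edgeR) and Eomes, which defines these cells, a lower one (-2.06, adjusted p = 0.001 by edgeR), a larger log2 fold change than that of Rasd2 or Rasal1. The 5 blood genes had sums of 115 to 245 CPM in WT/WT mice and 95.6 to 111 CPM in 304Q/304Q mice, with 4 lower DEGs of 5 and a median log2 fold change of -1.002. The medians of the blood sums were 201 CPM in WT/WT and 102 CPM in 304Q/304Q mice of 12 months. The part of the sums in the values of Rasd2 and Rasal1 was not tested.

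Rasd2 is known for its high expression in the striatum, and 7 markers of striatum and forebrain were lower in sum as well, at 152 to 192 CPM in WT/WT and 99.0 to 128 CPM in 304Q/304Q mice of 12 months. Nearly all of this sum is Ppp1r1b (DARPP-32), which is also made in the cerebellum. Only 2 of the 7 had enough counts to be tested, and they went opposite ways at 12 months. Ppp1r1b was a lower DEG by edgeR (log2 fold change -0.70), and Rgs9 was higher (0.61) without being a DEG. The dopamine receptor gene Drd1, a defining marker of the striatum, was near 0, with at most 0.49 CPM in any mouse of that age. Without the 6 libraries rich in choroid plexus genes, the 12-month log2 fold change of Rasd2 was -1.43 and that of Rasal1 -1.78, no smaller than with them.

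For Rasd2 and Rasal1 the tested genes with the most similar course were looked up, by the root mean square difference of log2 CPM over the 20 mice after centring each gene on its own mean. Closest to Rasd2 were the myelin gene Mobp (0.256), the growth factor binding protein Igfbp5 (0.258), the glutamate receptor Grm4 (0.272), Clstn2 (0.274) and the cell cycle inhibitor Cdkn1a (0.283). Closest to Rasal1 were the noncoding RNA Mirt1 (0.415), Igfbp5 (0.427), the potassium channel gene Kcnh3 (0.435), the carbonic anhydrase gene Car9 (0.446) and Grm4 (0.447). Igfbp5 and Grm4 stood in both lists. Log2 fold changes at 12 months were -0.80 for Mobp, -1.42 for Igfbp5, -0.90 for Grm4, -1.06 for Clstn2 and -0.88 for Cdkn1a, all smaller in size than that of Rasd2 except for Igfbp5. They were -1.86 for Mirt1, -1.27 for Kcnh3 and -0.90 for Car9.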

How the data were processed

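The authors sequenced polyA-enriched cerebellar RNA with a stranded kit, aligned the reads with STAR to GRCm38 (version 2.4.5b in the submitters' processing notes), took gene counts with Rsubread and deposited these whole-number counts of 20 mice, not normalized. Their own tests used DESeq2 with surrogate variables. Every column was matched to 1 mouse by its name. Genes whose mean reached 50 counts were fitted with edgeR 4.0.16 in R 4.3.3 (TMM, quasi-likelihood test, 1 term for each of the 4 groups over all 20 libraries), with Benjamini-Hochberg adjustment over 12153 genes. Log2 CPM used a prior count of 2, and RPKM used the exon length of GENCODE M21, which held 29150 of the 29200 IDs. The precision is set by the depth given above and by a common biological coefficient of variation of 0.113.

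The members and lists were chosen with earlier results of these data known. Genes named are the 9 members, every DEG of the pathway lists (or, where a list had none, the 3 genes with the lowest p at 2 months) and the 5 genes closest in course to Rasd2 and to Rasal1. Cell type markers named singly beside the sums were chosen after seeing the values. The alternatives were DESeq2 1.42.0, 3 surrogate variables from sva 3.50.0, other size factors and filters, fits of only the groups compared, a replicate block and each library left out. All replicates differed by more than sampling noise. The fits were tested on simulated counts. Protein sequences and promoters of Rasd1 and Rasal1 were not used here. A few single markers are left out of the text.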

Additional observations from a re-analysis of the deposited data

Results flagged for a closer look

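Of 52 groups of 5 mice (9 members and 4 pathway genes, each in 4 groups), 4 held a value set apart from the others by Dixon's test, where chance flags about 1 in 20. Rasa1 had 900.5 normalized counts in 304Q/304Q replicate 4 of 12 months, with the next mouse at 776.3. Rasgrf2 had 33.29 in 304Q/304Q replicate 3 of 2 months, with the next at 64.34. Dusp5 was set apart in both groups of 2-month mice, with 1124 in WT/WT replicate 4 (next 1943) and 958.9 in 304Q/304Q replicate 4 (next 1484).

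The genotypes differed between the ages for Dusp5, with an interaction of -1.23 (log2; adjusted p = 0.00466 in edgeR's test). The difference of genotypes was -0.38 at 2 and -1.61 at 12 months, and the 12-month groups did not overlap.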

How the results depend on the processing

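Without the libraries rich in choroid plexus genes, an alternative chosen after seeing the data, and under all planned ones, Rasd2 stayed between -1.43 and -1.29 and Rasal1 between -1.84 and -1.56 at 12 months (log2). No called result changed direction, though members with values near 0 did under some alternatives, such as Rasal2 at 12 months (0.19 without the choroid-rich libraries). At 2 months Rasal1 was called by DESeq2 with surrogate variables (-0.56), which made the number of members called 1. The number of DEGs at 2 months, 1 at first, was 3 without a filter, 2 with a mean of 10 counts, 8 with DESeq2, 9 with surrogate variables in edgeR, 10 with DESeq2 and surrogate variables, and 1 to 2 with a library left out. With at least 50 counts in every library Rasal1 was not tested, so 1 member was called at 12 months, with age in 304Q/304Q mice and for the interaction, and 0 with age in WT/WT mice. The age comparison of WT/WT mice gave 314 DEGs, 185 with surrogate variables in edgeR, 204 with them in DESeq2, and 206 (without WT/WT replicate 1 of 2 months) to 593 (without WT/WT replicate 1 of 12 months), and the number of members past both thresholds, 1, was 0 in a fit of only the groups compared, 0 without the choroid-rich libraries and 0 to 1 with a library left out (0 without WT/WT replicate 4 of 2 months or replicate 1, 4 or 5 of 12 months). The interaction gave 114 DEGs, 173 with DESeq2, 68 without the choroid-rich libraries, with 1 member among them in place of 2, and 75 (without WT/WT replicate 3 of 12 months) to 178 (without 304Q/304Q replicate 5 of 2 months) and 264 (without WT/WT replicate 1 of 12 months). The counts of members at 12 months, with age and for the interaction come from Rasd2 and Rasal1, whose values there chose the genes, and are a description without a test. Rasgrf1 with age in 304Q/304Q mice had adjusted p-values of 0.0259 to 0.323 over the alternatives. The cause of these shifts was not tested, save where fewer genes or mice were in the fit.

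The replicate numbers showed no evident pairing of mice: of 30 same-number pairs, 6 correlated above 0.1 (range -0.32 to 0.55). The numbers need not follow litters, so this check cannot tell which mice were littermates. With the replicate block, 1, 364, 309, 264 and 104 genes were DEGs at 2 and 12 months, with age in WT/WT and 304Q/304Q mice and for the interaction, and Rasd2 and Rasal1 differed by -1.36 and -1.65 at 12 months. With their low counts and their spread between mice, Rasd1 and Rasgrf2 allow no statement on moderate changes.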

Other observations

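Several ERK feedback inhibitors other than Dusp5 had values below 0 with wide intervals. In 304Q/304Q mice of 12 months, Dusp4 differed by -0.64 on the log2 scale (95% confidence interval -1.28 to 0.01, adjusted p = 0.189 by edgeR), Spry4 by -0.63 (-1.41 to 0.15, adjusted p = 0.287 by edgeR) and Dusp6 by -0.40 (-0.72 to -0.08, adjusted p = 0.0951 by edgeR). Of the 11 inhibitors, 9 had a log2 fold change below 0, as did 6181 of all 12153 genes tested. These 3 genes were singled out after their values were seen, and none of them was a DEG.

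Among the Ras-family GTPases, Rras2 differed by 0.56 (95% confidence interval 0.10 to 1.03, adjusted p = 0.107 by edgeR) and Rit2, a GTPase of neurons, by 0.34 (0.14 to 0.53, adjusted p = 0.0196 by edgeR) at 12 months. Rit2 thus passed the adjusted p but not the threshold of size. Both were also singled out after their values were seen.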
